A study of Mus musculus with 3 samples.

Results

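Wing cells are the suprabasal cells of the corneal epithelium, which lie between the basal layer and the flat superficial cells that face the tears. The cells described here are those that the authors' deposited annotation calls Wing, 13447 of 38111 cells, and the account asks which genes peak in this middle layer against every other epithelial class. The study took the corneal epithelium of healthy C57BL/6J mice, dissociated it with enzymes and sequenced single cells with a droplet 3′ method. Library 1 held 4 corneas of 2 males aged 20 weeks, library 2 held 4 corneas of 2 females aged 11 weeks, and library 3 held 7 corneas of 7 males aged 10 weeks. Each library is thus a pool of animals, in which age, sex and processing cannot be told apart. P-values rest on how far differences between classes vary over these 3 pools, estimated over all 7 epithelial classes.

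The cornea renews its epithelium from the limbus and the basal layer. Basal cells hold on to the basement membrane through hemidesmosomes, leave it, and pass through the wing layers before they form the tight-junction barrier at the surface. Wing cells are known for dense keratin filaments anchored in desmosomes, and they no longer divide as a rule. The other epithelial classes of the annotation are Basal (8829 cells), TAC1 (4136) and TAC2 (3186), Squam (5240), LSC (737) and Conj (2422), and 114 further cells are named Immune. The abbreviations are not spelled out in the sources used here. By their markers Squam, LSC and Conj are read as superficial, limbal and conjunctival.

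Wing cells made up 34.8% of library 1 (3300 of 9488 cells, exact 95% binomial interval 33.8 to 35.7), 31.1% of library 2 (3511 of 11273, 30.3 to 32) and 38.2% of library 3 (6636 of 17350, 37.5 to 39), a mean of 34.7% ± 3.55 (SD, n = 3). The intervals cover counting error only. A wing cell held a median of 14083 UMIs, that is molecules counted, and 39 wing cells held fewer than 2000. With every cell thinned to 2000 UMIs, a wing cell showed 880 ± 7.15 genes, against 864 ± 10.4 in Basal and 707 ± 7.58 in superficial cells (mean ± SD of 3 libraries). Pairs of libraries shared 32, 57 and 53 cell barcodes, of which 2, 5 and 6 were wing cells in both libraries.

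The UMIs of each class were summed within each library, and wing cells were compared with each of the 6 other epithelial classes in 1 edgeR model with the library as a block. Levels are CPM, the UMIs of a gene relative to all UMIs of its sum, scaled by TMM, which corrects each sum for its composition, and differences are log2 fold changes ± SE. Where the markers of a cell type are summed, their CPM is relative to all UMIs without TMM factors. A difference was called at a Benjamini-Hochberg adjusted p under 0.05 over all 13472 genes tested. The authors' classes were made from the same transcriptome, so the calls describe the classes and are no independent proof of them. Scaling bears on every comparison with superficial cells, whose TMM factors were 0.474 to 0.502 against 0.996 to 1.02 in wing cells. With library totals alone the wing minus superficial differences shifted up by a median of 1.03, and the wing minus Basal differences fell by 0.235. Directions against superficial cells are therefore relative to that shift. Negative differences smaller than it in size depend on the scaling, whereas positive ones grow with library totals.

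The 4 genes that mark wing cells were checked first. Krt12, the keratin typical of corneal epithelium (chr11:99415666-99422259, mm10), stood at 29194, 27344 and 29064 CPM in wing cells of libraries 1, 2 and 3. In superficial cells, the next highest class, Krt12 stood at 19596, 24381 and 17791 CPM, and in Basal cells at 17384, 15958 and 16805 CPM. Wing cells were highest in each library, by 0.47 ± 0.11 over superficial and 0.77 ± 0.11 over Basal cells (edgeR adjusted p = 0.0019 and 2.8e-05). Krt5, a keratin of stratified epithelia (chr15:101707070-101712898), stood at 10993, 10163 and 9072 CPM in wing cells against 9688, 9871 and 6919 CPM in conjunctival cells, the nearest class. Within each library wing cells were the higher, but the ranges of the classes overlapped, and the difference was 0.20 ± 0.06. The Krt5 peak was lost without the library block and at 2000 UMIs per cell.

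Lypd3, a GPI-anchored protein of the Ly6 and uPAR family (chr7:24636550-24641118), stood at 397, 399 and 386 CPM in wing cells. It stood at 312, 393 and 271 CPM in conjunctival cells and below 130 CPM in all other epithelial classes. Wing cells exceeded Basal cells by 1.95 ± 0.08 and superficial cells by 1.88 ± 0.08, but conjunctival cells by only 0.28 ± 0.07, a call that was lost with RLE factors, with DESeq2 and at 2000 UMIs per cell. Mal, a membrane proteolipid of apical transport (chr2:127633226-127656695), did not peak in wing cells. Its level of 6994, 7812 and 6095 CPM in wing cells lay far above the 313, 313 and 249 CPM of Basal cells, a difference of 4.58 ± 0.11. It lay below the 26096, 35021 and 24934 CPM of superficial cells in every library, by -2.04 ± 0.10. Of the 4 markers 3 were thus highest in the middle layer, but only Krt12 in all 15 alternative analyses, and Mal rose towards the surface.

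**Figure D1:**
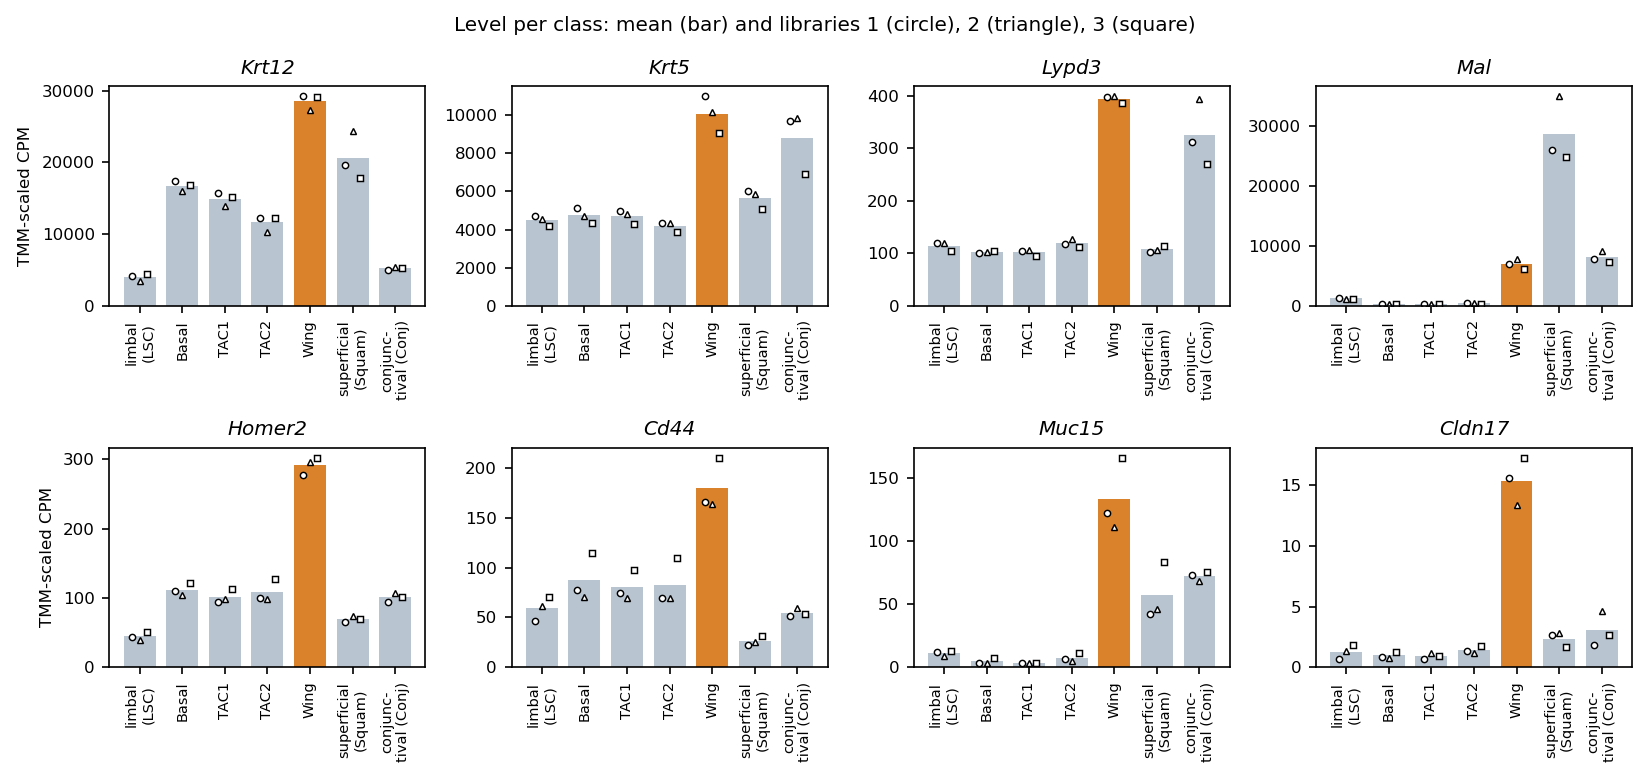
Levels of 8 genes in TMM-scaled CPM (vertical axis, linear from 0) in the 7 epithelial classes. Bars are means of 3 libraries, symbols are the libraries, and wing cells are orange. Homer2, Cd44, Muc15 and Cldn17 were above every other class in each library, whereas Mal was higher in superficial cells.

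Free RNA in the droplets limits what single cells can show. At 2000 UMIs 100% of wing cells held a Krt12 UMI, but so did 97.9% ± 3.61 of Immune cells, which should lack it, so this share is not read as expression. Lypd3 was seen in 53.0% ± 1.08 of wing cells (96.0% unthinned) against 21% ± 0.197 of Basal, 41.6% ± 5.98 of conjunctival and 11.6% ± 7.36 of Immune cells. Mal was seen in 97.8% ± 0.285 of wing cells (99.9% unthinned), in 42.4% ± 3.44 of Basal cells and in 43.2% ± 2.90 of Immune cells. The Basal share is therefore not read as expression, and the part of free RNA in it was not tested. The Immune class holds 114 cells, but its shares at 2000 UMIs rest on the 56 that reached this depth. These were 16, 35 and 5 cells in libraries 1, 2 and 3.

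In all, 292 genes were highest in wing cells, that is 2.17% of the 13472 tested. Each was higher in all 6 comparisons and in every library. Only 75 genes (0.557%) were lowest by the same rule. The split of highest against lowest genes was 221 to 111 with RLE factors, 207 to 115 with DESeq2 and 460 to 36 with library totals. Library totals shared 192 of the 292 highest and 22 of the 75 lowest genes. Without the library block it was 173 to 45. The peaks were mostly shallow. The difference to the nearest class had a median of 0.41, from 0.13 to 3.22, and reached 1 in 38 genes. The nearest class was conjunctival for 113 genes, Basal for 75, superficial for 58, TAC2 for 32, TAC1 for 11 and LSC for 3. Just inside the threshold lay Mettl7a1, Sdc1 and Fzd6 with a largest adjusted p of 0.0444 to 0.0483, and just outside lay Crot, Higd1a, Dusp7 and Jup with 0.0509 to 0.0520 (edgeR).

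Each library in turn gave values that had not chosen the genes, though they had helped to set the classes and the TMM factors. The shares below are thus no independent test of the peaks. Of the genes highest in libraries 2 and 3 together, 215 of 215 had wing cells as the highest class in library 1 (100%). The same held for 217 of 227 in library 2 (95.6%) and for 237 of 255 in library 3 (92.9%). Of all genes tested, 6.43% to 7.02% had wing cells as the highest class in those libraries. Of the genes lowest in the other libraries, 44 of 48, 50 of 53 and 52 of 64 were again lowest, against 3.35%, 4.77% and 3.19% of all genes tested.

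The 25 peak genes with the clearest separation from every other class, among those with at least 32 CPM in wing cells, included scaffold and adhesion proteins. Homer2, a scaffold protein of calcium signalling complexes (chr7:81600481-81707527), stood at 277, 296 and 302 CPM in wing cells. It stood at 109, 105 and 121 CPM in Basal cells, the nearest class, and at 65.1, 73.8 and 69.3 CPM in superficial cells. No library of either class came near the wing values, with differences of 1.39 ± 0.07 and 2.07 ± 0.07. Cd44, the hyaluronan receptor, stood at 166, 165 and 210 CPM against 78.1, 70.3 and 115 CPM in Basal cells and 22.5, 25.1 and 31.1 CPM in superficial cells. Library 3 was the highest for Cd44 in both wing and Basal cells, and the wing minus Basal difference was 1.06 ± 0.11. Cd109, a GPI-anchored protein that dampens TGF-beta signalling, stood at 118, 122 and 120 CPM against 61.0, 58.8 and 65.5 CPM in conjunctival cells, with no overlap between the classes.

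Fermt3 encodes kindlin-3, an integrin activator best known from blood cells. It stood at 115, 107 and 110 CPM in wing cells against 53.7, 47.9 and 57.5 CPM in conjunctival cells, a difference of 1.07 ± 0.08. Immune cells carried it too, with a UMI in 35.2% ± 4.44 of them at 2000 UMIs against 20.7% ± 1.01 of wing cells. The 6 immune markers in the table summed to 1.16 to 9.16 CPM in wing cells and to at least 23350 CPM in Immune cells. Clip4, which has the microtubule-binding domain of the CLIP proteins, stood at 211, 174 and 209 CPM, above conjunctival cells by 0.97 ± 0.07. The scaffold proteins Tanc1 and Ahnak2 and the casein kinase 1 anchors Fam83a and Fam83g also peaked in wing cells, by 0.65 to 0.89 over their nearest class.

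Muc15, a membrane-bound mucin, had the steepest rise of these genes out of the basal layer. It stood at 122, 111 and 166 CPM in wing cells, at 3.40, 3.68 and 7.44 CPM in Basal cells, and at 42.6, 46.3 and 83.3 CPM in superficial cells. Wing cells exceeded Basal cells by 4.81 ± 0.18 and superficial cells by 1.25 ± 0.14, whereas the mucin Muc4 rose on to the surface and was lower in wing than in superficial cells by -3.28 ± 0.24. Enzymes formed a further group of the 25. These were the glutathione transferases Gsta2 and Mgst3, the prolyl hydroxylase Egln3, the acyltransferase Agpat3, the desaturase Scd2, the glycogen phosphorylase Pygl and the sulfurtransferase-like Tstd3. Gsta2, at 390, 396 and 393 CPM in wing cells, has close relatives whose reads it may share.

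**Figure D2:**
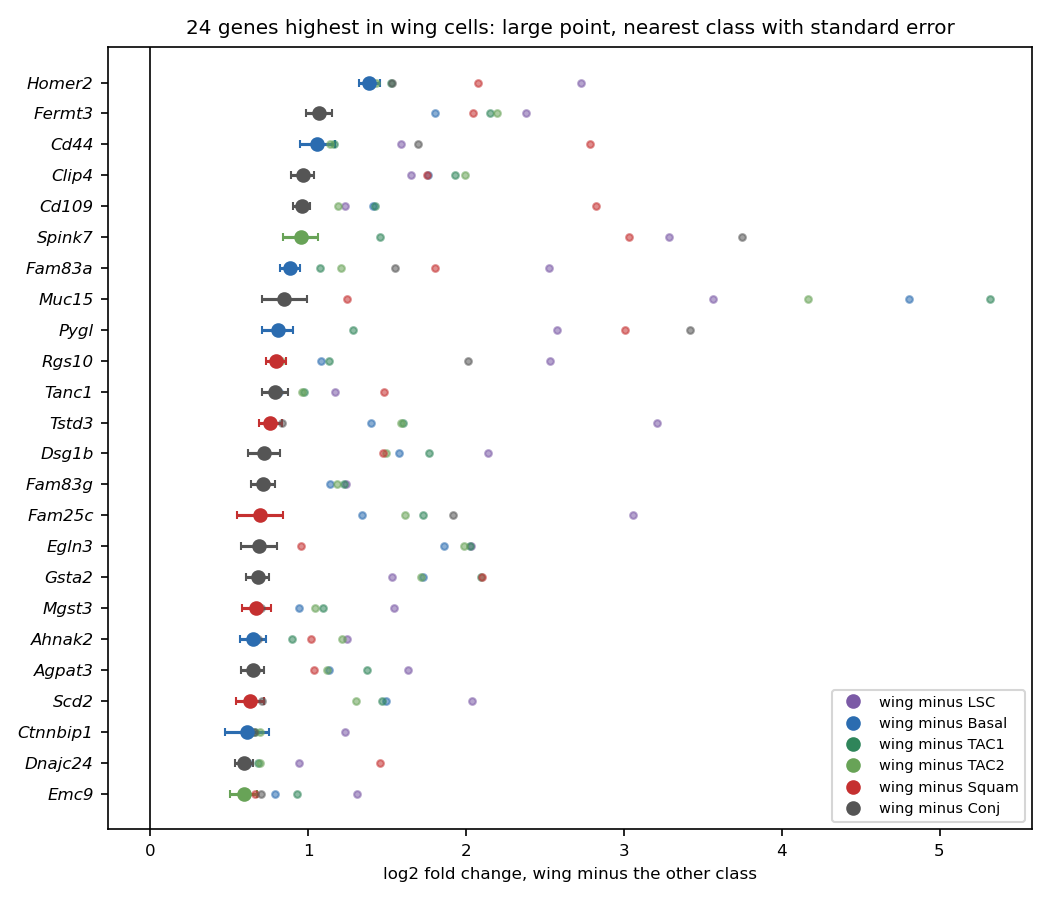
Shown are 24 of the 25 best separated genes among those highest in wing cells with a mean wing level of at least 32 CPM. The horizontal axis is the log2 fold change of wing cells minus each other class, small points are the 6 classes, and the large point with its SE is the nearest class. All points lie above 0, and the large points run from 0.59 (Emc9) to 1.39 (Homer2).

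Larger differences to the nearest class were found in genes of low level, of which a few are named here after their values were seen. The largest, 3.22, was that of Chrnb3, a nicotinic receptor subunit, at only 1.94, 1.11 and 1.78 CPM in wing cells. Cldn17, a claudin (chr16:88505807-88506978), stood at 15.6, 13.3 and 17.2 CPM in wing cells. The nearest class, conjunctival, held 1.80, 4.65 and 2.63 CPM, a difference of 2.30 ± 0.20, and Basal cells held 0.873, 0.784 and 1.27 CPM. The highest value in a library of any other class was that 4.65 CPM. Lrrc4, a leucine-rich repeat membrane protein, stood at 10.2, 8.74 and 8.80 CPM against 1.84, 1.23 and 1.78 CPM in Basal cells (2.51 ± 0.14). A4galt, the enzyme that makes the glycolipid Gb3, stood at 5.29, 3.08 and 8.72 CPM against 0.779, 0.375 and 1.75 CPM in Basal cells (2.60 ± 0.18), with the same order of libraries in both classes. Plbd1, a phospholipase B-like protein, was above the nearest class by 1.57 ± 0.14. Cldn17, Lrrc4 and Plbd1 were highest in wing cells in 15 of 15 alternative analyses and A4galt in 14. The haemoglobin gene Hba-a1, a red cell marker, was also among the 292, at a mean of 1.08 CPM. Its other red cell partner Hbb-bs is not analysed here.

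Among the genes lowest in wing cells were the limbal markers Gpha2 and Ifitm3. Gpha2, a glycoprotein hormone subunit, stood at 23.2, 26.7 and 15.1 CPM in wing cells, 101, 131 and 59.8 CPM in Basal cells and 2067, 2258 and 2045 CPM in LSC. Ifitm3, a membrane protein of antiviral defence, stood at 6.16, 18.6 and 7.17 CPM in wing cells against 454, 704 and 672 CPM in LSC. At 2000 UMIs Gpha2 was seen in 3.62% ± 0.728 of wing and 3.99% ± 3.46 of Immune cells. For Ifitm3 these shares were 1.88% ± 1.06 and 15.8% ± 14.5. The part of free RNA in them was not tested. Genes with dips between both neighbours were of other kinds. Slc3a2, the heavy chain of amino acid transporters, stood at 20.9, 22.0 and 21 CPM in wing cells against 57.0, 63.9 and 65.3 CPM in Basal and 126, 125 and 120 CPM in superficial cells. Sgk1, a kinase induced by steroid hormones and osmotic stress, stood at 106, 102 and 93.0 CPM, below Basal by -0.75 ± 0.07 and below superficial cells by -1.84 ± 0.07. Txnip, Serpinb6a, Efemp1, Mrpl33, Tnfaip8 and Zfp593 completed the 10 lowest genes with the clearest separation and at least 32 CPM in every other class.

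Wing cells differed from Basal cells in 9989 genes (74.1%), with 5352 higher (39.7%) and 4637 lower (34.4%). They differed from superficial cells in 10237 genes (76.0%), with 5186 higher (38.5%) and 5051 lower (37.5%). By these calls 3404 genes rose outward from Basal over wing to superficial cells (25.3%), and 2798 fell outward (20.8%). In 1089 genes (8.08%) wing cells were above both neighbours, and in 583 (4.33%) below both (352 without the library block). In 33.2% only 1 of both differences was called, and in 8.31% neither. On the log2 scale wing cells lay at a median of 0.422 of the way from Basal to superficial cells in genes higher in superficial cells, and at 0.379 in genes lower there. Among genes with a log2 fold change of at least 2 in size these medians were 0.429 and 0.469, so their order depends on the genes taken. The positions rest on TMM-scaled levels and were not repeated with library totals. With library totals the patterns were 1289 rising, 5482 falling, 2162 above both and 237 below both. Counts of patterns thus depend on the scaling. Counts within lists are given under both where library totals are named, and with TMM alone otherwise.

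In the other comparisons, the called genes numbered 10390 for TAC1 (77.1%), 10088 for TAC2 (74.9%), 7941 for LSC (58.9%) and 6977 for conjunctival cells (51.8%). LSC sums held the fewest UMIs, 1733168 to 4270080 against 72574890 to 97041382 in wing sums, and the part of depth in the number of calls was not tested for each class. The share of called genes that were higher in wing cells was 53.6% for Basal, 50.7% for superficial, 52.5% for TAC1, 52.2% for TAC2, 56.0% for LSC and 49.4% for conjunctival cells. With library totals these shares were 38.3%, 83.9%, 39.5%, 34.0%, 31.9% and 70.3% in the same order.

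**Figure D3:**
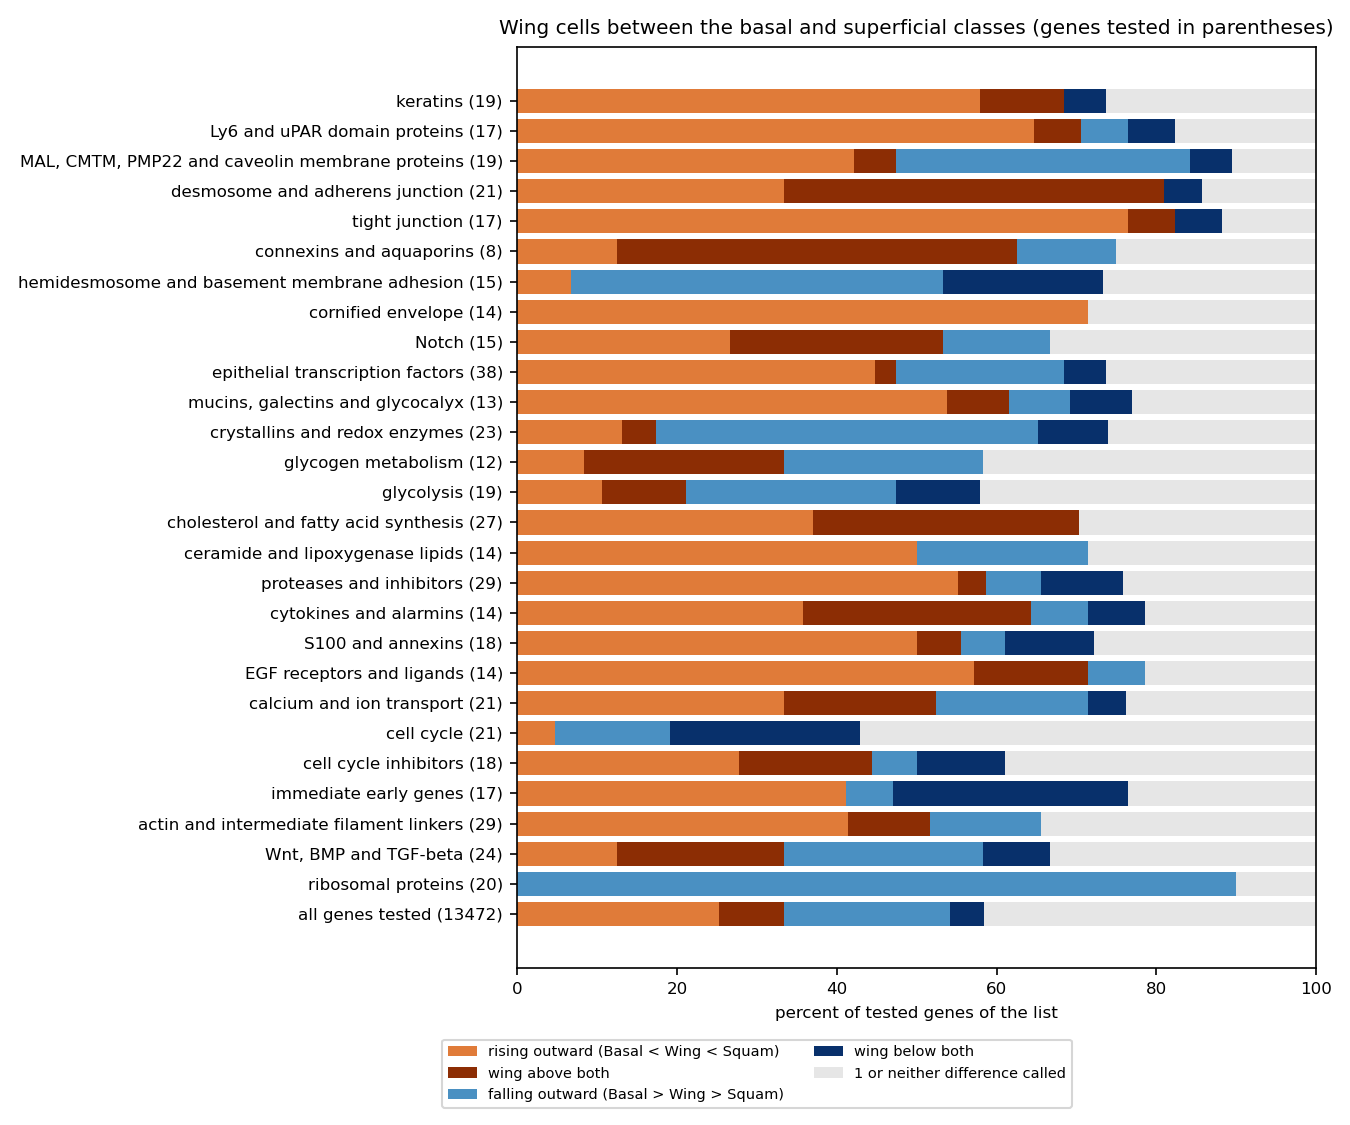
Percent of the tested genes of 27 gene lists, and of all genes tested (bottom bar), by where wing cells lay between the Basal and superficial classes. Colours give the pattern by the edgeR calls with TMM scaling, and grey stands for genes with at most 1 of both differences called. Desmosome genes and genes of lipid synthesis hold 10 of 21 and 9 of 27 genes above both neighbours, and 18 of 20 ribosomal protein genes fall outward. Over all genes tested 8.08% lie above both neighbours and 20.8% fall outward.

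Adhesion changed in kind between the layers. Of 21 desmosome and adherens junction genes tested, 18 were higher in wing than in Basal cells and 2 lower, with a median difference of 1.35, against 39.7% higher and a median of 0.04 over all genes tested. Against superficial cells 10 were higher and 9 lower (16 and 4 with library totals). Against conjunctival cells 7 were higher and 10 lower, where 25.6% and 26.2% of all tested genes were. Dsp, the plakin that ties keratins to the desmosome, stood at 1352, 1455 and 1383 CPM in wing cells, 548, 582 and 515 CPM in Basal and 719, 807 and 665 CPM in superficial cells. Its wing values lay above those of every other class, conjunctival cells being nearest at 951, 1218 and 907 CPM. The desmosomal cadherins Dsg1a, Dsg1b and Dsc3 and the plakophilin Pkp1 were likewise highest in wing cells. Without the library block 3 of these 5 genes were highest, and 1 gene of the list was lower than in Basal cells.

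Dsg1a stood at 412, 401 and 487 CPM in wing cells against 67.0, 74.4 and 103 CPM in Basal and 133, 122 and 152 CPM in superficial cells, differences of 2.43 ± 0.10 and 1.68 ± 0.10. Dsg1b moved alike at a lower level (1.58 ± 0.10 and 1.48 ± 0.11), but the genes are close copies that may share reads. Dsc3 was already present in Basal cells, at 256, 283 and 262 CPM against 371, 380 and 352 CPM in wing cells, and fell to 105, 99.1 and 97.7 CPM at the surface. The related cadherins Dsc2 and Dsg3 rose over Basal cells by 2.78 ± 0.06 and 2.69 ± 0.11 but did not peak in wing cells. Dsc2 stood at 435, 408 and 489 CPM in wing cells and higher in conjunctival cells in every library, at 504, 550 and 514 CPM. Nectin1, an adherens junction protein, was 2.56 ± 0.07 above superficial cells. Dsp, Dsg1b and Dsc3 kept their peak in wing cells in 15 of 15 alternative analyses, Dsg1a in 14 and Pkp1 in 9.

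Tight junction genes showed another order. Of 17 tested, 14 were higher in wing than in Basal cells and 2 lower (median 1.73), but only 1 was higher than in superficial cells and 15 were lower (4 and 9 with library totals). Compared with conjunctival cells 1 was higher and 14 were lower. Over all genes tested 39.7% were higher and 34.4% lower than in Basal cells. The same shares were 38.5% and 37.5% against superficial, and 25.6% and 26.2% against conjunctival cells. The claudin Cldn3 stood at 102, 111 and 116 CPM in wing cells, 1.47, 2.80 and 1.37 CPM in Basal and 231, 361 and 281 CPM in superficial cells. Wing cells lay between both neighbours in each library. Cldn7 rose over Basal by 2.30 ± 0.09, whereas Cldn23 and the scaffold Tjp1 were still low in wing cells, by -4.61 ± 0.15 and -3.05 ± 0.06 against superficial cells. Cldn17, not among the 17, was the claudin with its peak in wing cells described above.

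Gap junction genes moved in both directions. Gja1, the connexin of basal cells, fell from 241, 218 and 295 CPM in Basal to 58.5, 51.3 and 64.7 CPM in wing cells (-2.11 ± 0.15) and further to 24.2, 18.0 and 15.8 CPM in superficial cells. Gjb6 rose from 0.218, 0.205 and 0.191 CPM in Basal cells to 7.85, 7.00 and 7.39 CPM in wing cells, a difference of 5.15 ± 0.21. Of 8 connexin and aquaporin genes tested, 6 were higher and 1 lower than in Basal cells, and 6 were higher and 1 lower than in superficial cells (7 and 0 with library totals). Of the 8, 4 were above both neighbours, against 8.08% of all genes tested. The shares of all genes that were higher in wing cells were 39.7% against Basal and 38.5% against superficial cells. Anchorage to the basement membrane went down. Of 15 such genes 12 were lower in wing than in Basal cells and 1 was higher (13 and 1 with library totals). The median was -1.10, and over all genes tested 34.4% were lower and 39.7% higher. Among the lowered genes were the integrin Itgb4, at 13, 17.0 and 12.2 CPM in wing against 148, 160 and 136 CPM in Basal cells (-3.41 ± 0.09), and Itga2 (-4.00 ± 0.11). Col17a1, a hemidesmosome collagen, was lowered less, to 309, 299 and 276 CPM from 1105, 980 and 975 CPM. Itga6 was lower in wing cells, at 103, 115 and 93.8 CPM, than in superficial cells, at 219, 262 and 196 CPM, but with library totals this difference was -0.07 and not called.

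**Figure D4:**
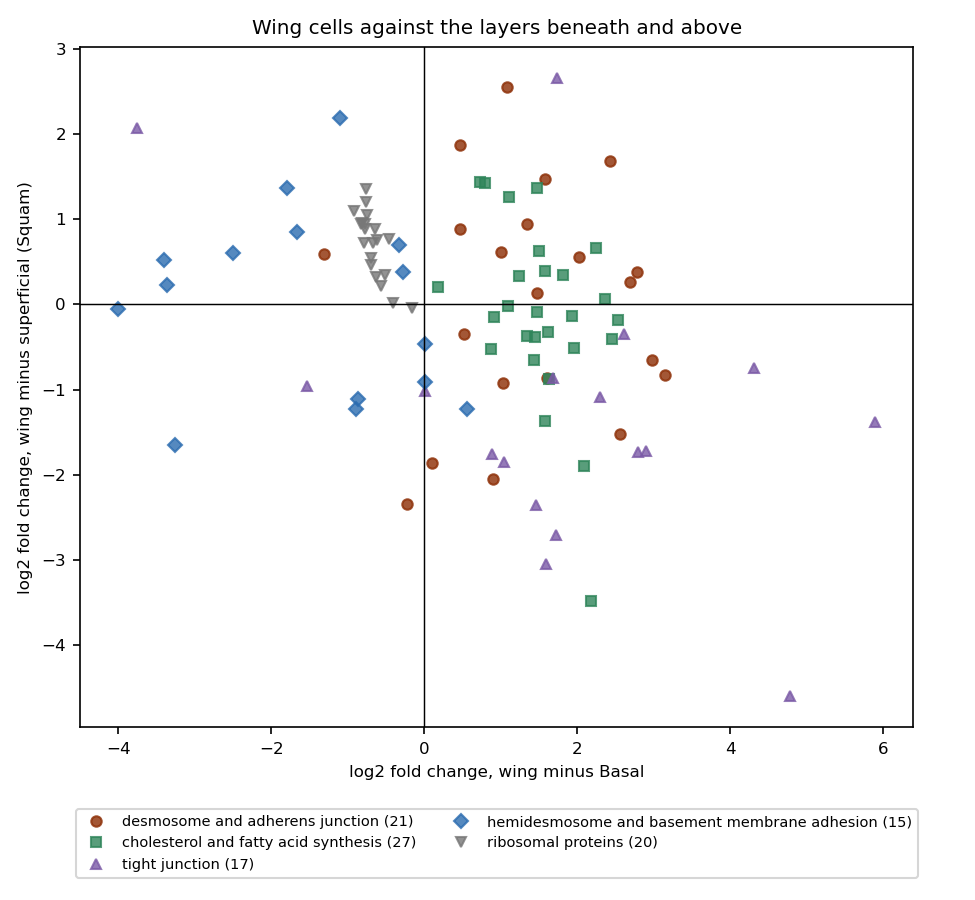
Each point is 1 gene of 5 lists, placed by its log2 fold change of wing minus Basal cells (horizontal) and wing minus superficial cells (vertical), with TMM scaling. Desmosome and lipid synthesis genes lie mostly right of 0 on both sides of the horizontal line, tight junction genes mostly in the lower right, and ribosomal protein genes in the upper left. With library totals the points would sit higher by a median of 1.03 and further left by 0.235.

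Genes of cholesterol and fatty acid synthesis rose together. All 27 on the list were tested. Of these, 27 were higher in wing than in Basal cells (25 with library totals), against 39.7% of all genes tested. The median difference was 1.5. Against superficial cells 9 were higher and 10 lower (24 and 3 with library totals). Wing cells were higher in 26 of the 27 against TAC1 and in 26 against LSC, where 40.5% and 33.0% of all tested genes were higher, but in only 8 against conjunctival cells, where 25.6% were. In the sterol branch the rise over Basal was 2.53 ± 0.11 for the squalene epoxidase Sqle, 2.46 ± 0.12 for the farnesyl diphosphate synthase Fdps and 0.92 ± 0.15 for Hmgcs1. Insig1, which holds the sterol sensor in the endoplasmic reticulum, stood at 106, 73.0 and 160 CPM in wing cells and at 1144, 1018 and 1480 CPM in superficial cells (-3.48 ± 0.13), so the list did not move as a block at the surface. With library totals 12 genes of the list peaked in wing cells. With TMM 4 did, all in the fatty acid branch. These were the desaturase Scd2, the citrate lyase Acly, the carboxylase Acaca and the elongase Elovl6. Scd2 stood at 662, 616 and 646 CPM in wing cells against 436, 435 and 367 CPM in superficial and 220, 207 and 257 CPM in Basal cells. Elovl6 stood at 132, 134 and 148 CPM in wing cells, with 54.7, 47.6 and 58.4 CPM in superficial cells and 113, 130 and 103 CPM in conjunctival cells, the nearest class. The fatty acid synthase Fasn followed the same shape, above Basal by 1.11 ± 0.09 and above superficial cells by 1.26 ± 0.10, but not above conjunctival cells in each library.

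Since these genes moved together, their promoters are shown as reference sequence from RefSeq (GRCm38.p6, from 250 bases before to 50 after the start of the gene, 5′ to 3′ on the gene's strand). The promoter table held 19 of the 27 genes. The motif CCAAT, bound by NF-Y, was searched on both strands, where it reads ATTGG on the other, and was found in 16 of the 19 (84.2%). It was found in 4484 of the 10347 tested genes with a promoter in the table (43.3%) and in 107 of the 223 such genes highest in wing cells (48.0%). The sterol regulatory element TCACNCCAC, searched likewise and without regard to overlap, was found in 1 of the 19 (5.26%) and in 1.38% of the tested genes. A match is a string of letters and no proof of binding. Only genes of the list with a single promoter entry were ranked by matches, with ties broken by name, and the first 3 are shown. Mvk (chr5:114444019-114444318, plus strand, 5 matches) encodes mevalonate kinase. Hmgcs1 (chr13:119690101-119690400, plus strand, 4 matches) encodes the cytosolic HMG-CoA synthase, and Nsdhl (chrX:72918271-72918570, plus strand, 4 matches) encodes a sterol dehydrogenase. Capitals mark the CCAAT or ATTGG letters.
Mvk: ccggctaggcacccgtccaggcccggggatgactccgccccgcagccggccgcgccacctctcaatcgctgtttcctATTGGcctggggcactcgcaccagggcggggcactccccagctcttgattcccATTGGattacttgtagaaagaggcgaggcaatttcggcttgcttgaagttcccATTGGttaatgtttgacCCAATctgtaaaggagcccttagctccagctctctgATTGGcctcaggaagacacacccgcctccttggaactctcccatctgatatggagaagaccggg
Hmgcs1: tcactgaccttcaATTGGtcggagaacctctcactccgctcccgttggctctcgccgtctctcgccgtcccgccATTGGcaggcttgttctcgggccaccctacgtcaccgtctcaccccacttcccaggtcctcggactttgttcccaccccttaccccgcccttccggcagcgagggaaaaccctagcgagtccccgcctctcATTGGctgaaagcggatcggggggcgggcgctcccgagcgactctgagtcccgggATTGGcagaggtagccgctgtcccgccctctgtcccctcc
Nsdhl: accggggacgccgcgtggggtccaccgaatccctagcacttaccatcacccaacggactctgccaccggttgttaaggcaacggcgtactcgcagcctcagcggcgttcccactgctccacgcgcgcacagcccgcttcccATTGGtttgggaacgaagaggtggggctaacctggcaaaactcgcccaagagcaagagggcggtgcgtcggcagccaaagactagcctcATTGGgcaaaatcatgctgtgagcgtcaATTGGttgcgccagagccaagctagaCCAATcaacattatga

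The genes behind these promoters differed between the layers in degree. Mvk stood at 91.9, 91.0 and 82.9 CPM in wing cells against 37.9, 36.8 and 37.4 CPM in Basal cells (1.24 ± 0.10). Hmgcs1 stood at 292, 239 and 354 CPM against 134, 135 and 202 CPM, and Nsdhl at 70.4, 62.2 and 71.9 CPM against 13.9, 15.7 and 18.6 CPM. In each of them the lowest wing value lay above the highest Basal value.

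Keratins were mostly outward genes. Of 19 tested, 17 were higher in wing than in Basal cells and 2 lower (median 2.95), and against superficial cells 2 were higher and 12 lower (4 and 8 with library totals, and 7 lower without the library block). Compared with conjunctival cells 2 were higher and 16 lower. Over all genes tested 39.7% were higher and 34.4% lower than in Basal cells. The same shares were 38.5% and 37.5% against superficial, and 25.6% and 26.2% against conjunctival cells. Krt14, the partner of Krt5 in basal cells, was lower in wing than in Basal cells by -3.53 ± 0.57, with 29.4, 100 and 28.1 CPM against 438, 674 and 384 CPM. Library 2 was the highest in both classes. Krt13 and Krt6b, keratins of mucosal and of activated epithelia (Krt6b shares reads with its copy Krt6a, so its value is uncertain), were above Basal cells by 6.31 ± 0.29 and 6.39 ± 0.30 but remained below superficial cells in every library. Krt15 stood at 5879, 5909 and 4552 CPM in wing cells, at 131, 304 and 89.4 CPM in Basal and at 29980, 30657 and 25011 CPM in conjunctival cells. The conjunctival markers Krt4, Krt13, Krt19 and Krt8 were summed without TMM factors. They stood at 2228 to 2552 CPM in wing cells, 5032 to 5608 CPM in superficial and 11740 to 14000 CPM in conjunctival cells. The TMM factors were 0.474 to 0.502 in superficial and 0.872 to 0.902 in conjunctival cells. Scaled by them, the superficial sums would rise more than the conjunctival sums. The part of these keratins in the genes shared with conjunctival cells was not tested. Of 14 cornified envelope genes tested, 12 were higher in wing than in Basal cells and none lower (median 4.01), and 10 were lower than in superficial cells (7 with library totals). Compared with conjunctival cells 1 was higher and 10 were lower. Krt23, a keratin of the surface, stood at 2.32, 0.871 and 0.305 CPM in wing cells against 432, 353 and 260 CPM in superficial cells (-8.32 ± 0.26).

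Of 15 Notch genes tested, 9 were higher in wing than in Basal cells and 5 lower (7 and 6 with library totals), against 39.7% and 34.4% over all genes tested. The ligand Jag2 fell from 93.5, 92.2 and 63.9 CPM to 6.55, 8.35 and 4.86 CPM (-3.67 ± 0.12), whereas the receptor Notch3 was highest in wing cells, at 71.9, 70.8 and 59.3 CPM against 56.8, 50.5 and 45.9 CPM in the nearest class, conjunctival. The Notch target Nrarp stood at 73.0, 73.0 and 48.3 CPM in wing cells, above Basal by 2.10 ± 0.10 and above superficial cells by 2.63 ± 0.12, with no call against conjunctival cells at 63.2, 66.0 and 64.2 CPM (difference -0.02 ± 0.10). Of 38 epithelial transcription factors, 19 were higher than in Basal cells and 12 lower (6 lower without the library block), and 14 were higher than in superficial cells and 20 lower (23 and 10 with library totals). Against superficial cells 38.5% of all genes tested were higher and 37.5% lower. Grhl1 and Zfp750, factors of late keratinocyte differentiation, were above Basal cells by 3.57 ± 0.08 and 3.74 ± 0.12. Trp63, the regulator of the stratified state, was lower than in Basal cells by -0.87 ± 0.05 but 1.93 ± 0.06 above superficial cells. Elf3, an epithelial ETS factor, differed by -2.67 ± 0.07 between wing and superficial cells.

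Of 14 genes of EGF receptors and ligands, 10 were higher in wing than in Basal cells and 1 lower (median 1.10), and 4 were higher and 8 lower than in superficial cells (6 and 6 with library totals). Over all genes tested 39.7% were higher and 34.4% lower than in Basal cells, and 38.5% and 37.5% than in superficial cells. The ligand gene Epgn, which encodes epigen, was highest in wing cells at 19.2, 18.6 and 20.3 CPM, against 9.38, 8.45 and 7.82 CPM in Basal and 1.24, 2.83 and 2.21 CPM in superficial cells. The related ligand Areg rose over Basal by 7.09 ± 0.37 but was not highest in wing cells. Among Wnt, BMP and TGF-beta genes Wnt11 was highest in wing cells, at 8.24, 7.23 and 7.74 CPM against 3.22, 1.70 and 4.61 CPM in conjunctival cells (1.33 ± 0.19). Of the 24 genes tested on that list, 8 were higher and 11 lower than in Basal cells (5 and 15 with library totals). The shares over all genes tested were 39.7% higher and 34.4% lower.

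Wing cells carried little RNA of dividing cells. The dividing markers Mki67 and Top2a summed to 4.32 to 5.19 CPM without TMM factors. Measured alike, they summed to 6.94 to 8.68 CPM in Basal and 780.7 to 873.6 CPM in TAC2. Superficial cells, at 2.01 to 5.98 CPM, and conjunctival cells, at 3.06 to 6.01 CPM, held as little. Of 21 cell cycle genes 13 were lower and 1 higher than in Basal cells (13 and 0 with library totals, and 0 higher without the library block). Against superficial cells 10 of these were lower and 4 higher, but 0 and 8 with library totals, so that direction depends on the scaling. Over all genes tested 34.4% were lower and 39.7% higher than in Basal cells, and 37.5% and 38.5% than in superficial cells. Cdkn1a, the cyclin-dependent kinase inhibitor p21, stood at 382, 358 and 391 CPM in wing cells, 13.8, 16.4 and 26.0 CPM in Basal and 207, 211 and 250 CPM in superficial cells. It was thus above both neighbours in every library, with no call against conjunctival cells at 314, 389 and 322 CPM (0.14 ± 0.14). Sfn, the 14-3-3 sigma protein of differentiating keratinocytes, stood above Basal by 1.56 ± 0.08 and above superficial cells by 1.43 ± 0.08. Of 18 cell cycle inhibitors in all, 9 were higher and 3 lower than in Basal cells (8 and 6 with library totals), against 39.7% and 34.4% over all genes tested.

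Of the glycogen genes, 2 peaked in wing cells. Pygl, the liver-type glycogen phosphorylase, stood at 66.6, 65.6 and 72.5 CPM in wing cells, 38.0, 35.2 and 44.5 CPM in Basal and 8.69, 6.31 and 10.7 CPM in superficial cells. Its difference to superficial cells was 3.01 ± 0.12. Its difference to Basal cells, 0.81 ± 0.10, shrank to 0.04 (edgeR adjusted p = 0.624) when cells were reassigned to classes from 50% of their UMIs and tested on the rest. Ppp1r3c, which targets protein phosphatase to glycogen, was 0.46 ± 0.08 above Basal and 1.66 ± 0.09 above superficial cells, with no call against Basal when the block was left out (edgeR adjusted p = 0.222). Of 12 glycogen genes 5 were higher and 3 lower than in Basal cells (4 and 6 with library totals, and 3 higher without the library block). Over all genes tested 39.7% were higher and 34.4% lower, so the list is not read as raised as a whole. Ribosomal protein genes fell outward. All 20 were lower in wing than in Basal cells (median -0.70), also with library totals. Against TAC1 20 were lower and against LSC 19, where 36.7% and 25.9% of all tested genes were lower. Of the 20, 18 were higher than in superficial cells (median 0.76). An example is Rps19, at 2078, 2383 and 1940 CPM between 3460, 3818 and 3509 CPM in Basal and 793, 989 and 726 CPM in superficial cells.

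Markers of both neighbouring layers were found in wing cells. At 2000 UMIs 26.2% ± 4.75 of them held UMIs of the basal markers Trp63, Col17a1, Itgb4 and Itga6 only, 32.9% ± 4.32 held UMIs of the superficial markers Muc4, Krt78, Ly6g6c and Cnfn only, 30.1% ± 1.00 held both and 10.8% ± 1.18 neither (mean ± SD of 3 libraries). In Basal cells, measured alike, 0.199% ± 0.0392 held superficial markers only and 4.61% ± 1.58 held both. In superficial cells 0.131% ± 0.123 held basal markers only and 25.8% ± 1.08 both. Immune cells held some of these markers too, and the part of free RNA in the shares was not tested. Col17a1 was seen in 39.1% ± 4.21 of wing and 22.6% ± 2.51 of Immune cells, Itga6 in 18.3% ± 2.44 and 11.4% ± 10.3, Trp63 in 17.7% ± 0.454 and 2.86% ± 4.95, and Itgb4 in 2.53% ± 0.635 and 0.952% ± 1.65. Of the superficial markers Ly6g6c was seen in 54.3% ± 6.03 of wing and 1.90% ± 3.30 of Immune cells, and Muc4 in 39.8% ± 4.58 and 8.75% ± 10.2. Krt78 was seen in only 6.69% ± 0.916 and Cnfn in 0.539% ± 0.252 of wing cells, so the superficial shares rest mainly on Ly6g6c and Muc4. Ly6g6c was seen in 71.8% ± 5.40 of superficial cells, not far above wing cells, and Muc4 also in 71.8% ± 4.57 of conjunctival cells. Itga6 was also seen in 18.2% ± 0.918 of superficial cells, so it does not separate these layers, and the shares are not read as shares of cells expressing the markers. Library 3 had fewer wing cells with basal markers only, 20.9% against 30.1% and 27.5% in libraries 1 and 2. Counting the mucosal keratins Krt4, Krt13 and Krt19 together, 3 UMIs or more were seen in 37.0% ± 1.01 of wing cells, 93.8% ± 0.420 of conjunctival, 82.0% ± 3.71 of superficial and 0.186% ± 0.166 of Basal cells. Doublets were not called, and their part in cells with both kinds of marker was not tested.

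**Figure D5:**
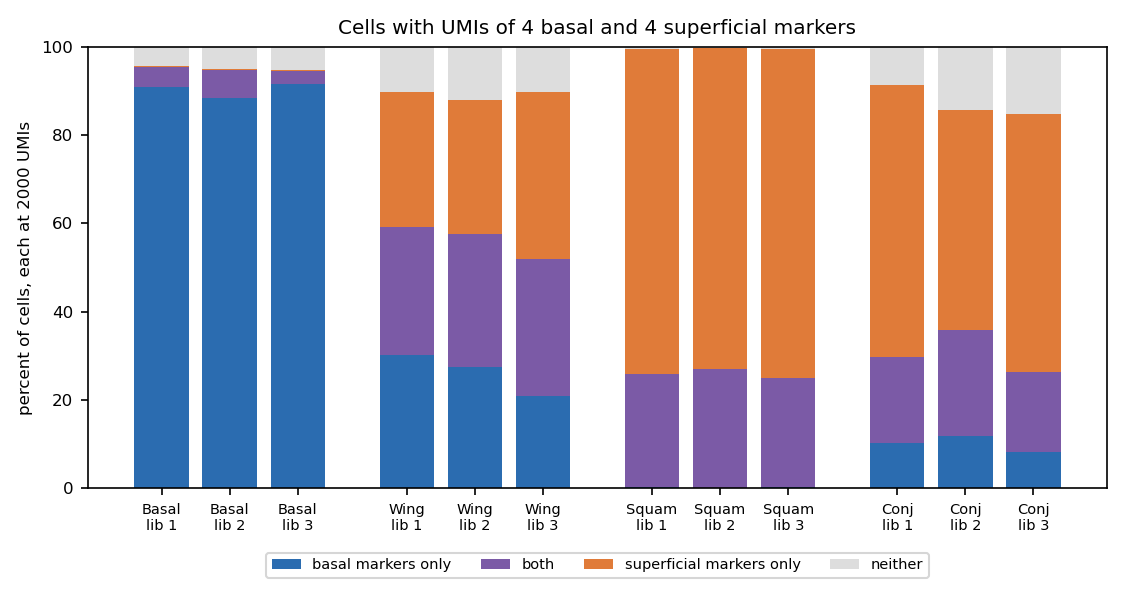
Percent of cells (vertical axis) of 4 classes, each library a bar and every cell thinned to 2000 UMIs, with UMIs of the 4 basal markers only, the 4 superficial markers only, both or neither. Wing cells divide over all 4 kinds in each library, with 20.9% to 30.1% on basal and 30.2% to 37.9% on superficial markers only.

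The variance of UMIs over wing cells divided by their mean, which is near 1 for pure counting noise, had a median of 1.03 over the 2076 genes with a mean of at least 0.1 UMI, and of 1.07 over the 81 of these that were highest in wing cells. Among the genes that varied most were Psca (22.9 ± 1.22), Gsto1 (21.7 ± 0.81), Krt15 (21.6 ± 1.06), Asprv1 (21.3 ± 2.12) and S100a6 (18.8 ± 0.837), below the predicted gene Gm42418 at 32.8 ± 13.6. Krt13 (10.6 ± 0.667) and Mal (7.63 ± 1.19) varied as well, and of the wing markers Krt12 had 7.91 ± 1.35 and Krt5 2.49. Psca was seen in 42.8%, 46.1% and 42.9% of wing cells at this depth. Markers of melanocytes and keratocytes were scarce in wing sums, unlike the conjunctival keratins given above (2228 to 2552 CPM). Melanocyte markers summed to 2.01 to 2.81 CPM and the 1 keratocyte marker in the table, Dcn, to at most 0.0276 CPM, while limbal markers summed to 22.8 to 45.8 CPM.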

How the data were processed

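The authors' deposited table holds raw UMI counts per gene and cell, not normalized, with a metadata table of classes. Per the submitters' processing notes the reads went through Cell Ranger 5.0.0 and Seurat 4 with mm10. No doublet caller was run, and the labels do not say whether doublets were removed. Library 1 was matched to its cells by elimination.

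Counts were summed over cells of a library and class (21 sums), filtered with filterByExpr (13472 of 17931 genes kept) and fitted with edgeR 4.0.16 (TMM, quasi-likelihood F test, library as block, 12 residual degrees of freedom, R 4.3.3). The library pairs the classes, since all classes of a library come from the same animals. Highest means called higher, in all 3 libraries, against all 6 other epithelial classes. Named genes were the 4 markers, the 25 highest and 10 lowest genes by smallest difference with at least 32 CPM, the 10 largest differences each way against Basal and Squam, and the leading members of each list. The members and lists were chosen with earlier results of these data known, and further list members, and low-level peak genes, were named after their values were seen. The code was tested on simulated data. Gene positions are those of GENCODE on GRCm38 (mm10). Reads of a 3′ kit do not separate close copies. Some results that the rule would name are not reported here.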

Additional observations from a re-analysis of the deposited data

How the results depend on the processing

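The counts of highest and lowest genes, layer patterns and lists were repeated under 15 alternatives, each class comparison under 14 and the shares of cells under 2. Of 1708 alternative values for the differences of 73 named genes against Basal or superficial cells, 1705 kept their direction and call, 3 lost the call (Pygl, Ppp1r3c and Itga6, given above) and 0 reversed. Peaks were lost more often, since they also need the calls against the other classes. Of the 292 highest genes 70 were highest in all of them. Cat and Stim1 were kept in 3 of 15, Fzd6 in 4, Lypd3 and Elovl6 in 12 and Krt5 in 13.

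At 2000 UMIs per cell, which leaves fewer counts, the called genes numbered 6645 against Basal, 6905 against TAC1, 6505 against TAC2, 4179 against LSC and 3553 against conjunctival cells, with 121 highest, 20 lowest, 598 above both neighbours, 310 below both and 2184 rising. With equal cell numbers they were 5805 against Basal, 6886 against TAC1 and 4011 against conjunctival cells, with 130 highest, 26 lowest, 479 above both, 252 below both, 1865 rising and 1618 falling. Without the library block that pairs the classes, 173 genes were highest, 45 lowest and 352 below both, and no other count over all genes moved by over 1.5 times. List counts that moved so are given beside their lists. DESeq2 gave 115 lowest genes, and leaving out each library in turn gave 48 to 64, the fewest without library 1. With library totals, chosen after seeing the data, 460 were highest, 36 lowest, 2162 above both, 237 below both, 1289 rising and 5482 falling. The deposited classes on 50% of the UMIs, also chosen after seeing the data, gave 49 lowest genes. The cause of these changes was otherwise not tested.

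When each cell was reassigned from 50% of its UMIs, 67.3% of wing cells stayed wing, 20.5% moved to Basal, 6.17% to superficial and 5.57% to conjunctival, and 217 genes were highest, 193 of them shared with the 292. The share of wing cells with a Lypd3 UMI was 32.6% at 1000 UMIs and 96.0% unthinned, so such shares hold only for their depth. With 3 pools of animals, age, sex and processing cannot be told apart.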
